A study of Mus musculus with 12 samples.

Results

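Genes that carry new proteins into the endoplasmic reticulum (ER) and attach sugar chains to them were followed in left ventricles of mice with an inducible form of ATF6, a transcription factor of the ER stress response. The set was 38 genes, taken by symbol from the platform annotation of the array: the Sec61 channel and its partners, the TRAP complex, the signal recognition particle (SRP) and its receptor, signal peptidase, oligosaccharyltransferase, and enzymes that build or trim N-linked sugar chains. Of these, 36 genes were measured, by 85 of the 45101 probe sets. The other members, Sec61g and Srp54a, were matched only by probe sets that the annotation assigns to several genes, and they were not measured here. All 36 measured genes were bright enough to be tested, so none was lost to the filter on dim genes described under processing.

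Proteins bound for the ER are recognised by SRP as their signal peptide leaves the ribosome, handed to the SRP receptor, and passed through the Sec61 channel, where TRAP assists some signal peptides. On the inner side signal peptidase cuts the signal peptide away, and oligosaccharyltransferase moves a preassembled sugar tree from the lipid dolichol onto asparagine residues. Glucosidases then trim the tree, and Uggt1 puts a glucose back on proteins that are not yet folded, so that lectin chaperones hold them. In heart muscle this route serves membrane channels, receptors, secreted hormones and matrix proteins.

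Each of 12 hearts was hybridised to its own Affymetrix 430 2.0 array, 3 per group. Transgenic (TG) mice carry ATF6-MER, ATF6 joined to a mutant mouse estrogen receptor domain that tamoxifen activates, and non-transgenic (NTG) mice are their littermates; both genotypes received either tamoxifen or vehicle. All were C57/BL6 males, given as about 30 weeks old except TG tamoxifen 1, given as 40 weeks. The sources used here give no promoter for the transgene and no dose or time of treatment. Levels below are log2(intensity + 16) after quantile normalization, changes are differences of group means on that scale with their standard error (SE, n = 3 arrays per group), and a gene is said to have risen or fallen where limma's Benjamini-Hochberg adjusted p over 11165 genes was under 0.05.

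The labels of a few arrays need care. Esr1, which encodes the estrogen receptor and shares sequence with the fusion, read 16.66 to 18.25 on the 6 TG arrays, 7.15 to 8.70 on NTG vehicle, and 10.88 and 9.89 on NTG tamoxifen 2 and 3, but 17.72 on the array labelled NTG tamoxifen 1, within the TG range. That array goes against its label, and results are given with and without it. TG vehicle 3 has vehicle in its title and tamoxifen in its treatment field, and the title was followed. Hspa5, the ER chaperone BiP and a known ATF6 target, read between 18.37 and 18.47 in TG tamoxifen, between 15.76 and 16.39 in TG vehicle, between 15.95 and 16.19 in NTG vehicle, 15.65 and 15.49 on NTG tamoxifen 2 and 3, and 18.05 on NTG tamoxifen 1. On TG vehicle 3 Hspa5 was 15.94, within the range of the other TG vehicle arrays. Median intensity per array ran from 648 to 834.

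In TG tamoxifen against TG vehicle, which compares the fusion with and without its drug, 11 of the 36 genes rose and 1 fell, against 10.4% and 14.4% of all genes tested. The genes that rose came from every group of the set: Sec61a1 and Sec61b of the channel, Ssr3 of TRAP, Srp9 of SRP, Sec11a, Sec11c and Spcs3 of signal peptidase, Stt3b of oligosaccharyltransferase, Alg8 of sugar tree assembly, and Mogs and Uggt1 of glucose trimming. Srp68 of SRP fell. The groups are small, so a single call in a group is not a result about that group. The median change of the 36 genes was 0.43, with 29 above 0, beside a median of -0.07 over all genes. All 3 TG tamoxifen arrays lay above all 3 TG vehicle arrays for 22 members and below them for 2, against 19.8% and 24.4% of all genes. The 3' to 5' ratio of the beta-actin control, a measure of RNA integrity, also differed without overlap between TG tamoxifen and TG vehicle: it lay between 1.75 and 1.88 in TG tamoxifen, between 1.32 and 1.68 in TG vehicle, between 1.78 and 1.97 in NTG tamoxifen and between 2.12 and 2.43 in NTG vehicle. The same ratio of the Gapdh control overlapped between TG tamoxifen (0.745 to 0.778) and TG vehicle (0.759 to 0.787). It was 0.766 to 0.852 in NTG tamoxifen and 0.886 to 1.005 in NTG vehicle. The part of these ratios in the results was not tested. In bulk tissue, fewer cells of a type and less RNA per cell cannot be told apart, for these and all later differences.

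Without the array labelled NTG tamoxifen 1, which enters this comparison only through the estimate of the spread, 13 members rose and 1 fell (12.9% and 16.4% of all genes), the additions being Rpn1 (adjusted p = 0.0214) and Sec63 (adjusted p = 0.0281). The numbers also moved with single arrays of the groups compared: 4, 6 and 7 members rose when TG tamoxifen 1, 2 and 3 were left out in turn, and 7 when TG vehicle 2 was. Calls over all genes fell with them, from 1166 higher to 534, 653, 709 and 701 of 11165. Sec11c, Mogs, Spcs3 and Sec11a were the 4 of 12 called genes that passed whichever single array was left out. Under scaling by the array median in place of quantile normalization, 17 members rose and 0 fell, with 1542 genes higher and 1166 lower overall in place of 1166 and 1608. With TG vehicle 3 grouped as TG tamoxifen, 0 of the 36 members and 0 of all genes passed. In that fit 9 members had an unadjusted p under 0.05, without a count over all genes at that level.

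**Figure D1:**
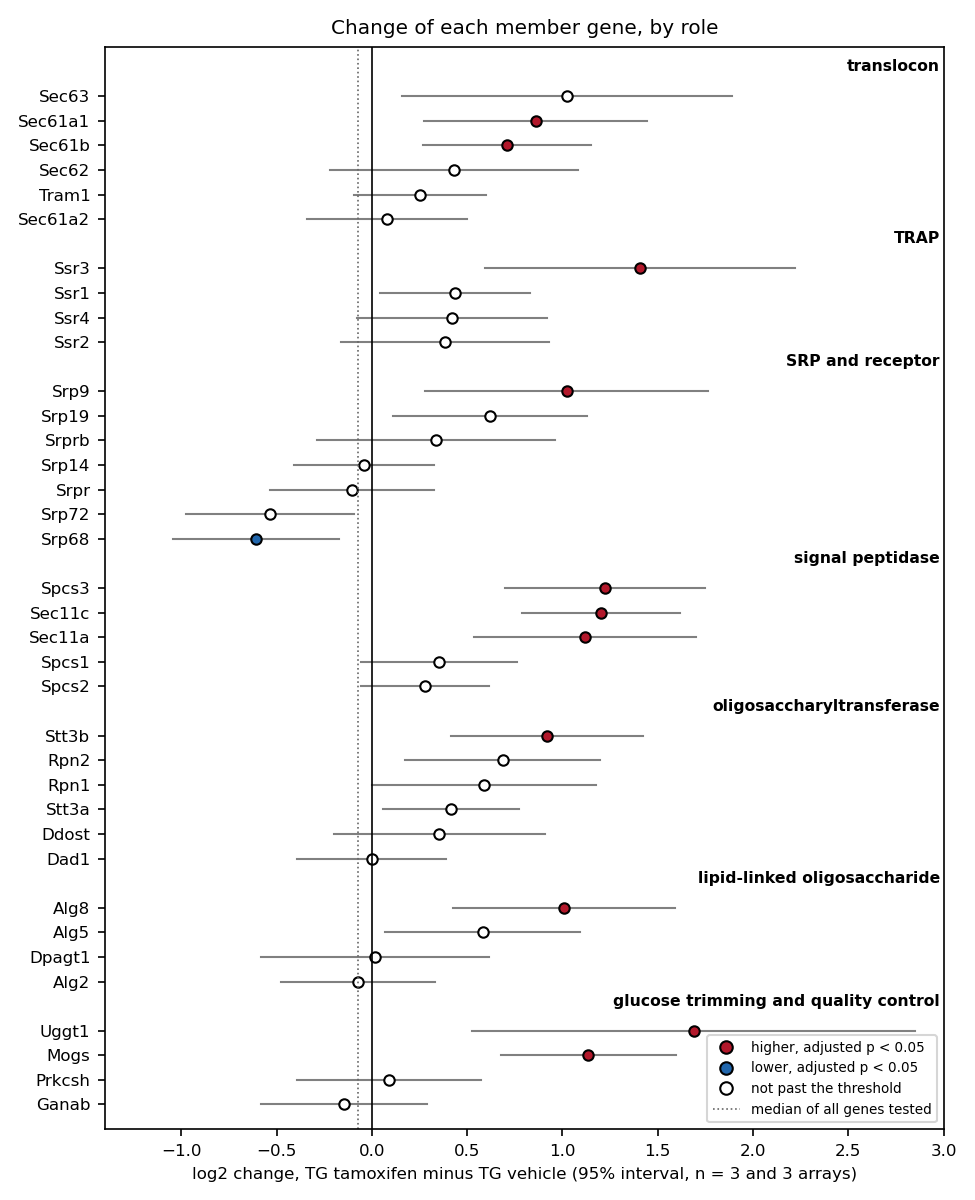
Log2 change of each of the 36 genes (horizontal axis) in TG tamoxifen against TG vehicle, with 95% intervals, ordered by role; filled points passed an adjusted p of 0.05. Points past the threshold occur in all 7 role groups, all 5 signal peptidase genes lie above 0, and the SRP group holds both the 1 gene that fell, Srp68, and a gene that rose, Srp9.

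The translocon is the protein channel of the ER membrane. Of its 6 measured genes 2 rose (10.4% of all genes), with a median change of 0.57. Sec61a1, the pore-forming subunit, read 13.46, 13.36 and 13.23 on the TG tamoxifen arrays, 11.89, 12.69 and 12.89 on TG vehicle, 13.32, 12.51 and 12.73 on NTG tamoxifen, and 12.34, 12.48 and 12.39 on NTG vehicle. TG tamoxifen lay above TG vehicle on every array, and NTG tamoxifen 1 lay among the TG tamoxifen arrays. The change was 0.86 ± 0.27 (adjusted p = 0.0365). It missed the threshold when any array of either group was left out except TG vehicle 3, with adjusted p between 0.0569 and 0.109, and when any NTG vehicle array was left out (0.0507 to 0.0514). Sec61b, a small subunit beside the pore, read 13.62, 13.53 and 13.65 in TG tamoxifen, 12.83, 12.78 and 13.07 in TG vehicle, 13.76, 13.13 and 13.01 in NTG tamoxifen, and 13.01, 12.81 and 13.08 in NTG vehicle. NTG tamoxifen 1 was the highest of the 12 arrays, and the other arrays outside TG tamoxifen were all lower than TG tamoxifen. Sec61b rose by 0.71 ± 0.20 (adjusted p = 0.0265), with adjusted p of 0.0538 to 0.0785 when TG tamoxifen 1, 2 or 3 or TG vehicle 1 or 2 was left out.

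The remaining translocon genes did not pass in this comparison. Sec63, whose J domain recruits BiP to the channel, read 13.02, 12.76 and 12.80 in TG tamoxifen, 11.94, 11.63 and 11.94 in TG vehicle, 11.98, 11.34 and 9.90 in NTG tamoxifen, and 11.83, 12.02 and 12.13 in NTG vehicle. Every TG tamoxifen array was above all 9 others, and NTG tamoxifen 3 stood lowest. The change against TG vehicle was 1.02 ± 0.39 (adjusted p = 0.0788), and it passed without NTG tamoxifen 1 (0.0281) or NTG tamoxifen 3 (0.00604). Sec62, the partner of Sec63 for short secretory proteins, changed by 0.43 ± 0.30 (adjusted p = 0.314), and Tram1, which lies beside the channel, by 0.26 ± 0.16 (adjusted p = 0.258); in both, TG tamoxifen did not overlap TG vehicle. Sec61a2, the other pore-subunit gene, read 11.98, 11.94 and 11.94 in TG tamoxifen and 12.27, 11.53 and 11.80 in TG vehicle, which overlap. Its change was 0.08 ± 0.19 (95% interval -0.34 to 0.50, adjusted p = 0.791).

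TRAP, a complex of 4 proteins beside the channel, had 1 of 4 genes higher (10.4% of all genes), and all 4 had changes above 0. Ssr3, its gamma subunit, read 15.95, 15.77 and 15.73 in TG tamoxifen, 14.69, 14.12 and 14.41 in TG vehicle, 15.22, 13.67 and 13.46 in NTG tamoxifen, and 14.54, 14.54 and 14.24 in NTG vehicle. TG tamoxifen was above all other arrays, followed by NTG tamoxifen 1. Ssr3 rose by 1.41 ± 0.37 (2.65-fold, adjusted p = 0.0193). A second probe set of Ssr3 read 1.34. It missed the threshold without TG tamoxifen 1 (adjusted p = 0.0647) or TG vehicle 2 (0.0678). Ssr1, Ssr4 and Ssr2 changed by 0.44 ± 0.18, 0.42 ± 0.23 and 0.38 ± 0.25 (adjusted p = 0.0954, 0.193 and 0.284).

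Promoter windows from RefSeq (GRCm38.p6) were available for 27 of the 36 genes, and they are shown here because ATF6 is known to bind ER stress response elements. The searched motifs were ERSE, which is CCAAT and CCACG with 9 bases between them, and TGACGTGG, on both strands, from 250 bases before to 50 after the start. Neither was found in any of the 27 windows, while they occur in 0.166% and 0.823% of all coding genes with a window. No match says only that these letters are not in these windows. The short elements, which by construction also lie inside ERSE, were common: CCACG in 17 of 27 windows (63.0%, against 40.4% of all genes) and CCAAT in 12 (44.4%, against 42.3%). In the 250 bases before the start alone, CCACG and CCAAT occurred together, in any arrangement, in 7 of 27 (25.9%, against 12.7% of all genes). The 250 bases before the start are printed for Stt3b, a called gene with both short elements (chr9:115310469-115310718, minus strand), and for Dnajc3 (chr14:118937682-118937931, plus strand), a BiP co-chaperone outside the set. Dnajc3 is 1 of 4 of the 63 related genes with a window that hold an ERSE, with Calr, Canx and Alg12, and was chosen for print after its values were seen. In TG tamoxifen against TG vehicle Dnajc3, Calr and Canx rose, and Alg12 changed by -0.54 ± 0.29 (adjusted p = 0.20). Capitals mark CCAAT or CCACG on either strand.
Stt3b: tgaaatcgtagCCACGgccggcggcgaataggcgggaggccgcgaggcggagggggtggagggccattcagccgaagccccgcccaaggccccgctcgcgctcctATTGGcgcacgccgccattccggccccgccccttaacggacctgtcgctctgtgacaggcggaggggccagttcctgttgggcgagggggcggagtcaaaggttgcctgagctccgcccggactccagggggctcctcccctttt
Dnajc3: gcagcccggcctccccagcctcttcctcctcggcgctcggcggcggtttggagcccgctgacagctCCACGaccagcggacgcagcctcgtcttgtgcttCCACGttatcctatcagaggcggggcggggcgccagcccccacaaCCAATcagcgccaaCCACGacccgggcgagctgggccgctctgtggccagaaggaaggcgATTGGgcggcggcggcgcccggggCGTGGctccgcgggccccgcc
In Dnajc3 the ERSE runs from 105 to 87 bases before the start. In Stt3b CCACG lies 239 to 235 bases before the start and CCAAT, on the opposite strand, at 145 to 141.

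Of the 7 genes of SRP and its receptor 1 was higher and 1 lower, beside 10.4% and 14.4% of all genes. Their median change was -0.04. Srp9, which with Srp14 forms the part of SRP that slows the ribosome, read 14.46, 14.23 and 14.33 in TG tamoxifen, 14.14, 12.71 and 13.11 in TG vehicle, 12.40, 12.35 and 11.45 in NTG tamoxifen, and 13.42, 13.45 and 13.22 in NTG vehicle. TG vehicle 1 came close to TG tamoxifen, and all 3 NTG tamoxifen arrays were the lowest of the 12. Srp9 rose by 1.02 ± 0.34 (adjusted p = 0.0469) against TG vehicle, a call lost under 9 of the 12 single arrays left out (adjusted p from 0.0513 to 0.167), including every TG tamoxifen array. Srp68, which with Srp72 binds the body of the SRP RNA, read 13.14, 12.95 and 12.90 in TG tamoxifen, 13.40, 13.98 and 13.44 in TG vehicle, 13.49, 14.02 and 13.89 in NTG tamoxifen, and 13.68, 13.68 and 13.65 in NTG vehicle. The TG tamoxifen arrays were the lowest of all, NTG tamoxifen 1 included among the higher ones. Srp68 fell by 0.61 on the log2 scale, with an SE of 0.20 (adjusted p = 0.0439), and this call too was lost under 9 of the 12 single arrays left out (0.0503 to 0.148) and under median scaling (-0.44, adjusted p = 0.154).

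Its partner Srp72 read 12.38, 12.19 and 12.33 in TG tamoxifen and 12.85, 12.93 and 12.73 in TG vehicle, without overlap, a change of -0.53 ± 0.20 that did not pass (adjusted p = 0.0720). Srp19, which helps assemble SRP on its RNA, changed by 0.62 ± 0.23 (adjusted p = 0.0716). Srp14 changed by -0.04 ± 0.17, the receptor subunit Srpr by -0.11 ± 0.20 and Srprb by 0.34 ± 0.29 (adjusted p = 0.881, 0.728 and 0.417). The partners Srp9 and Srp14 thus gave separate values, and their difference was not tested.

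Of the 5 signal peptidase genes 3 rose (10.4% of all genes), with a median change of 1.12. TG tamoxifen lay above TG vehicle without overlap for all 5 (19.8% of all genes). The share called was the largest among the 7 groups with 1 probe set per gene, but Sec11c and Sec11a did not pass with the mean of probe sets. Sec11c, one of the alternative catalytic subunits, read 12.66, 12.88 and 12.99 in TG tamoxifen, 11.47, 11.73 and 11.73 in TG vehicle, 12.23, 11.69 and 11.65 in NTG tamoxifen, and 11.84, 11.65 and 11.65 in NTG vehicle. Each TG tamoxifen array was above the 9 others, of which NTG tamoxifen 1 was the highest. Sec11c rose by 1.20 ± 0.19 (2.30-fold, adjusted p = 0.00244), the smallest adjusted p in the set. Its second probe set, below the filter level, went the other way (-0.77, adjusted p = 0.216 among all probe sets), and averaging both gave 0.21 (adjusted p = 0.454).

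Sec11a, the other catalytic subunit, read 14.68, 14.59 and 14.75 in TG tamoxifen, 13.73, 13.29 and 13.64 in TG vehicle, 14.33, 13.28 and 13.19 in NTG tamoxifen, and 13.28, 13.29 and 13.32 in NTG vehicle. The pattern over arrays was that of Sec11c, with NTG tamoxifen 1 again between TG tamoxifen and the rest. Sec11a rose by 1.12 ± 0.27 (2.17-fold, adjusted p = 0.0123); averaging its probe sets, of which 1 lay below the filter level, gave 0.75 (adjusted p = 0.290). Spcs3, a non-catalytic subunit that the complex needs, read 14.65, 14.69 and 14.47 in TG tamoxifen, 13.37, 13.20 and 13.57 in TG vehicle, 13.60, 12.69 and 12.66 in NTG tamoxifen, and 13.03, 12.93 and 12.74 in NTG vehicle. TG tamoxifen stood apart from all other arrays, and NTG tamoxifen 1 was at the level of the highest TG vehicle array. Spcs3 rose by 1.22 ± 0.24 (2.33-fold, adjusted p = 0.00563) and passed in 22 of 23 alternatives, the exception being TG vehicle 3 grouped as TG tamoxifen (adjusted p = 0.174). The small subunits Spcs1 and Spcs2 changed by 0.35 ± 0.19 and 0.28 ± 0.15 and did not pass (adjusted p = 0.186 and 0.201).

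Oligosaccharyltransferase had 1 of 6 genes higher (10.4% of all genes), with a median change of 0.50. TG tamoxifen lay above TG vehicle without overlap for 4 (19.8% of all genes). Stt3b, the catalytic subunit for sites that were skipped during translation, read 15.48, 15.29 and 15.31 in TG tamoxifen, 14.50, 14.51 and 14.32 in TG vehicle, 15.67, 14.69 and 14.79 in NTG tamoxifen, and 14.68, 14.64 and 14.71 in NTG vehicle. NTG tamoxifen 1 was the highest array, above all 3 TG tamoxifen arrays, and the other 8 arrays formed a lower band. Stt3b rose by 0.92 ± 0.23 (1.89-fold, adjusted p = 0.0154), and the call was lost without TG tamoxifen 1 (0.0587). Stt3a, the catalytic subunit that works beside the channel, read 13.73, 13.68 and 13.72 in TG tamoxifen, 13.12, 13.19 and 13.57 in TG vehicle, 12.79, 12.93 and 13.04 in NTG tamoxifen, and 12.70, 12.79 and 12.94 in NTG vehicle. The TG tamoxifen arrays were the highest, the TG vehicle arrays came next and the NTG arrays were the lowest, with NTG tamoxifen 1 at the NTG level. The change of Stt3a against TG vehicle, 0.42 ± 0.16, did not pass (adjusted p = 0.0834). Averaging its 4 probe sets, of which 3 lay above the filter level, gave 0.97, which passed (adjusted p = 0.00851). The largest change among them, 1.76, was that of the probe set below the filter level.

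The structural subunits Rpn2 and Rpn1 changed by 0.69 ± 0.23 and 0.59 ± 0.27 (adjusted p = 0.0516 and 0.128), both without overlap. Ddost changed by 0.35 ± 0.25 (adjusted p = 0.332), and Dad1 by 0.00 ± 0.18 (95% interval -0.39 to 0.39, adjusted p = 0.997). Changes of the set's genes in this complex, by the probe set that stands for each, thus ranged from 0.00 in Dad1 to 0.92 in Stt3b. Further subunits outside the set ran from -0.16 to 1.45.

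Among the 4 enzymes of sugar tree assembly Alg8 rose (10.4% of all genes did). Alg8, which adds a glucose to the dolichol-linked tree, read 11.98, 11.92 and 11.63 in TG tamoxifen, 10.58, 10.96 and 10.97 in TG vehicle, 11.36, 10.15 and 10.51 in NTG tamoxifen, and 10.38, 10.26 and 10.41 in NTG vehicle. TG tamoxifen was above the 9 other arrays, with NTG tamoxifen 1 next. The rise was 1.01 ± 0.27 (2.01-fold, adjusted p = 0.0196), lost without TG tamoxifen 1 (0.0689), TG tamoxifen 2 (0.0590) or TG vehicle 1 (0.0520). Alg5, which makes the glucose donor for Alg8, changed by 0.58 ± 0.23 (adjusted p = 0.0891), with TG vehicle 3 at 11.89 inside the TG tamoxifen range of 11.78 to 12.01. Dpagt1, the enzyme of the opening step, and Alg2, a mannosyltransferase, changed by 0.02 ± 0.27 and -0.07 ± 0.18 (adjusted p = 0.969 and 0.804).

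Of the 4 glucose trimming and quality control genes 2 rose (10.4% of all genes). Mogs, glucosidase I, which removes the outermost glucose, read 11.55, 11.20 and 11.51 in TG tamoxifen, 10.32, 10.64 and 9.90 in TG vehicle, 11.11, 11.00 and 10.87 in NTG tamoxifen, and 10.87, 10.52 and 10.96 in NTG vehicle. TG tamoxifen was the highest group, and TG vehicle lay below NTG tamoxifen and overlapped NTG vehicle. Mogs rose by 1.14 ± 0.21 against TG vehicle (2.20-fold, adjusted p = 0.00435), while against NTG tamoxifen its change was 0.43 ± 0.21 (adjusted p = 0.125). Uggt1, the sensor that adds glucose back to unfolded glycoproteins, read 13.28, 13.17 and 13.19 in TG tamoxifen, 11.14, 11.82 and 11.61 in TG vehicle, 13.90, 11.14 and 11.64 in NTG tamoxifen, and 11.36, 11.60 and 11.56 in NTG vehicle. NTG tamoxifen 1 was the highest of the 12 arrays, and the 8 other arrays outside TG tamoxifen stayed below 12. Uggt1 had the largest change of the set, 1.69 ± 0.53 (3.22-fold, adjusted p = 0.0385). The adjusted p was 0.000318 without NTG tamoxifen 1, and 0.0523 to 0.0998 when any single TG array or NTG vehicle array was left out. The subunits of glucosidase II, which removes the inner glucoses, did not pass: Ganab changed by -0.15 ± 0.20 and Prkcsh by 0.09 ± 0.22 (adjusted p = 0.631 and 0.799).

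By RefSeq (GRCm38.p6) the genes that rose or fell lie at chr6:88503607-88518800 (Sec61a1), chr4:47474661-47483233 (Sec61b), chr3:65379657-65392553 (Ssr3), chr1:182124737-182132415 (Srp9), chr11:116245166-116274217 (Srp68), chr8:54520433-54529998 (Spcs3), chr7:80915379-80947550 (Sec11a), chr18:65800578-65817660 (Sec11c), chr9:115242470-115310468 (Stt3b), chr7:97371567-97392159 (Alg8), chr6:83115506-83118902 (Mogs) and chr1:36140028-36244320 (Uggt1).

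**Figure D2:**
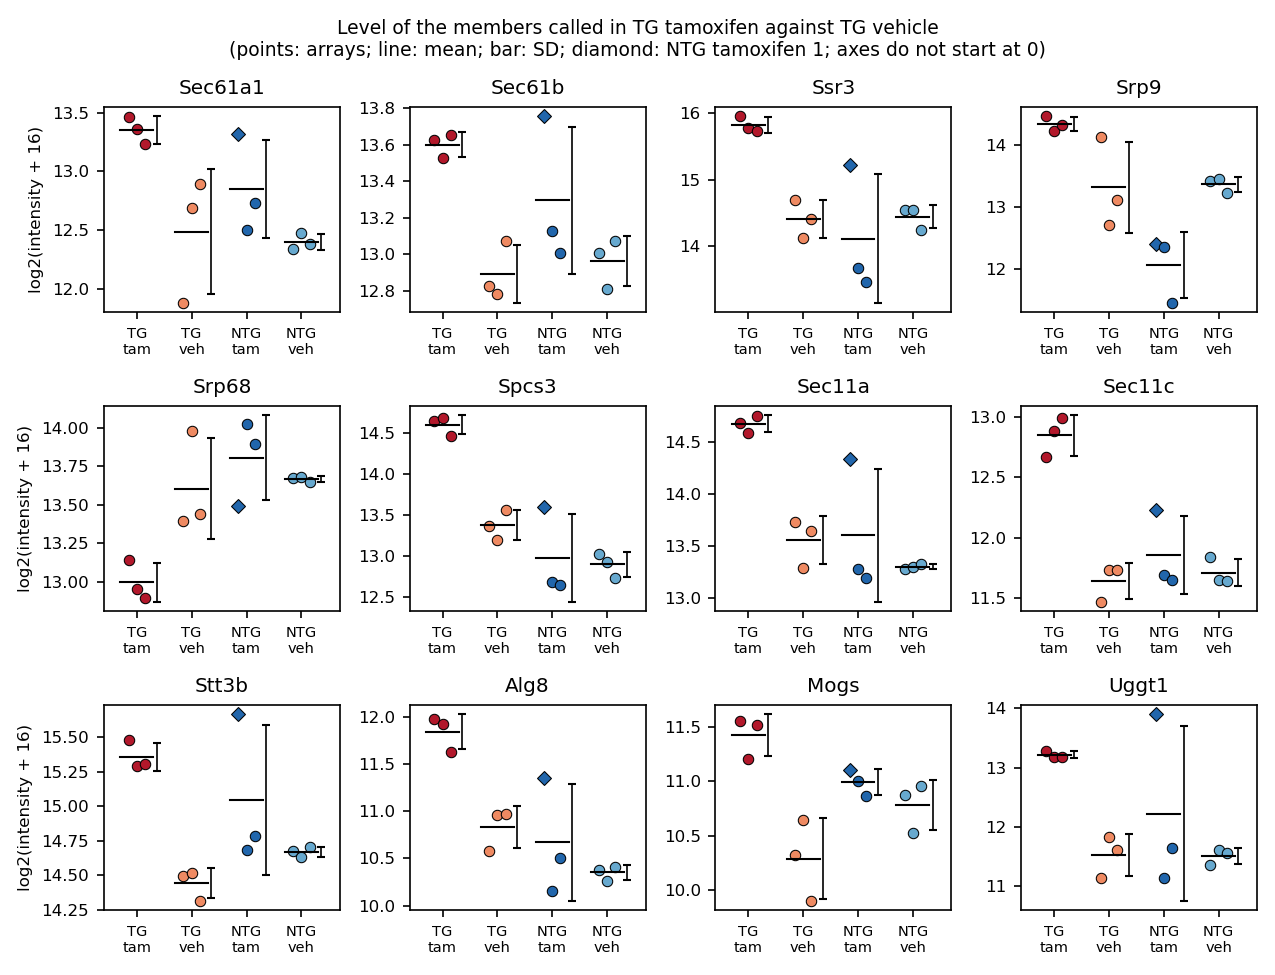
Level of the 12 genes called in TG tamoxifen against TG vehicle (vertical axes, log2(intensity + 16), not from 0) on each of 12 arrays, with group mean and SD (n = 3). For Sec61b, Stt3b and Uggt1 the array labelled NTG tamoxifen 1 (diamond) is the highest of all, at 13.76, 15.67 and 13.90; for Srp9 it lies with the other NTG tamoxifen arrays, at 12.40.

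Over arrays, the median difference of the 36 genes from the NTG vehicle mean was 0.71, 0.64 and 0.66 on the TG tamoxifen arrays, 0.49 on NTG tamoxifen 1, and between -0.02 and 0.11 on the 8 others. TG tamoxifen was above every other array for 14 members (38.9%, against 11.9% of all genes), and for 20 (55.6%, against 14.9%) when NTG tamoxifen 1 was set aside. NTG tamoxifen 1 was above both other NTG tamoxifen arrays for 26 members (37.3% of all genes) and above every array outside TG tamoxifen for 18 (17.3%). The members in which it was below both other NTG tamoxifen arrays were Sec61a2, Srp68, Stt3a and Ganab.

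**Figure D3:**
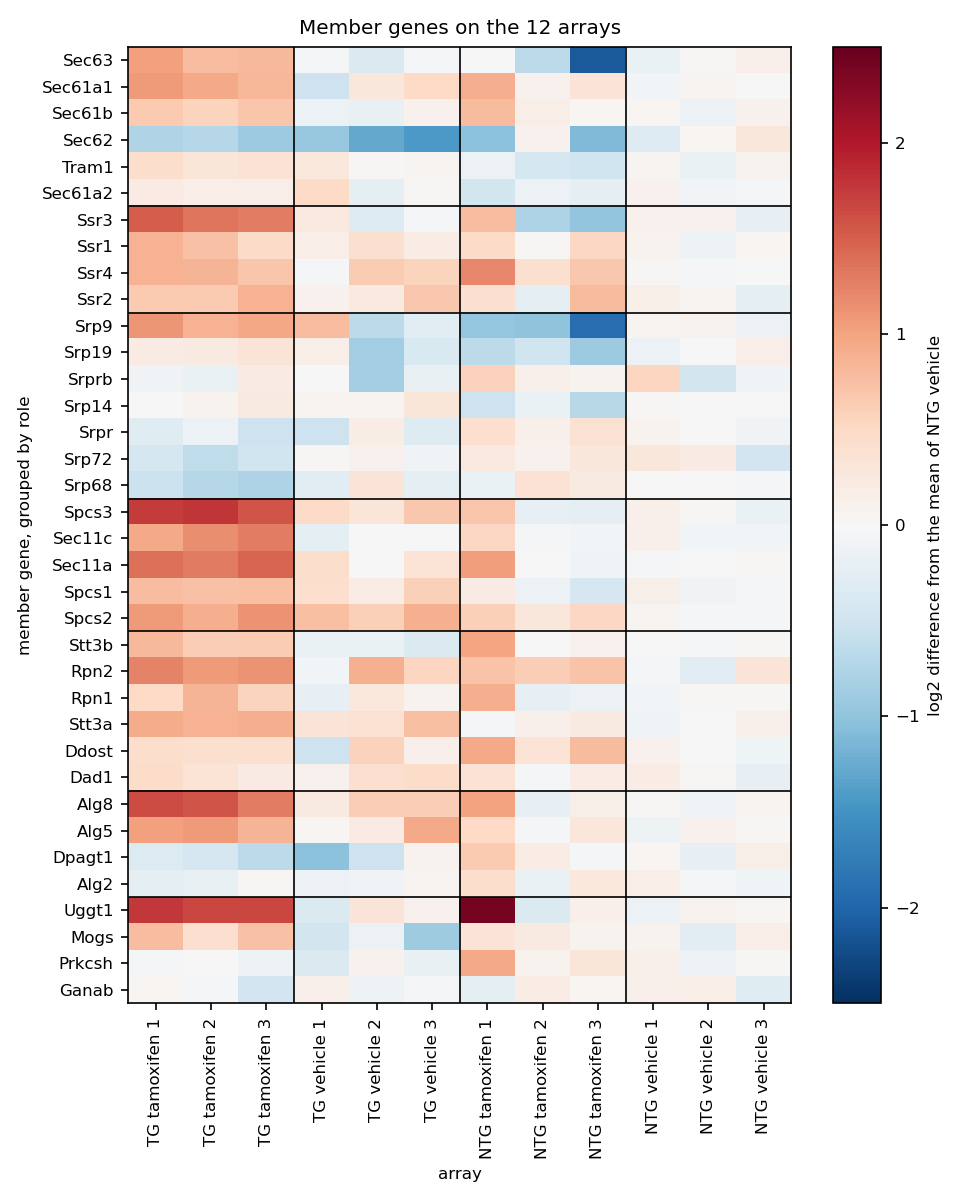
Difference of each of the 36 genes (rows, grouped by role) from its NTG vehicle mean on each of 12 arrays (columns), on the log2 scale. The TG tamoxifen columns are red for most genes, with medians of 0.64 to 0.71, NTG tamoxifen 1 resembles them with a median of 0.49, and Srp9 is blue in all 3 NTG tamoxifen columns.

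Paralogs that can replace each other in a complex were compared by the difference of their changes in TG tamoxifen against TG vehicle, with an exact two-sided permutation test over the 20 splits of 3 against 3 arrays, which cannot give a p below 0.1. Sec11c minus Sec11a was 0.08 (exact p = 0.7), and the arrays of the groups overlapped. Sec61a1 minus Sec61a2 was 0.78 (exact p = 0.1), without overlap: 1.29 to 1.49 in TG tamoxifen and -0.39 to 1.16 in TG vehicle. Stt3a minus Stt3b was -0.50 (exact p = 0.1), also without overlap. Adjusted over the 3 pairs, p was 0.7, 0.15 and 0.15, and the number of arrays allowed no pair to pass the threshold. With the mean of probe sets Sec61a1 minus Sec61a2 was 0.12 (exact p = 0.6), and without TG vehicle 1 it was 0.28. Stt3a minus Stt3b was -0.33 with the mean of probe sets (exact p = 0.4), -0.30 without TG vehicle 3, and -0.076 with TG vehicle 3 moved to the tamoxifen group.

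The probe sets of a gene did not all give the same size of change. Of the 85 probe sets 73 lay above the filter level, and 60 of these had a change above 0. Tested among all 45037 probe sets that are not controls, 3 member probe sets were higher, those of Mogs, Sec11c and Spcs3, and 0 were lower (1.41% and 1.7% of all probe sets). The number of member probe sets called was 10 without NTG tamoxifen 1, 0 without any single TG array or NTG vehicle 2, and 1 without NTG vehicle 1 or 3. No count over all probe sets is given for these fits. Tested only among those above the filter level, an alternative chosen after seeing the data, 16 were higher and 0 lower (8.54% and 9.81%). Both probe sets of Stt3b were among the 16, at 0.92 and 1.69, as were both of Ssr3. Stt3a, whose standing probe set gave 0.42, had others at 0.92 and 0.78 that passed (adjusted p = 0.0303 and 0.0415), and Spcs1 and Sec63 each had another that passed, at 0.84 and 0.88. The 6 probe sets of Sec61a1 ranged from -0.06 to 0.86, and averaging them gave 0.35 (adjusted p = 0.207). Uggt1 had a second at 0.75 (adjusted p = 0.105), and averaging its 3 gave 0.68 (0.282). With 0 called lower, the test over all probe sets could not show a gene with calls in opposite directions. Changes of both signs did occur within some genes, such as Sec11c (-0.77 to 1.20), Uggt1 (-0.40 to 1.69) and Srprb (-0.68 to 0.34).

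**Figure D4:**
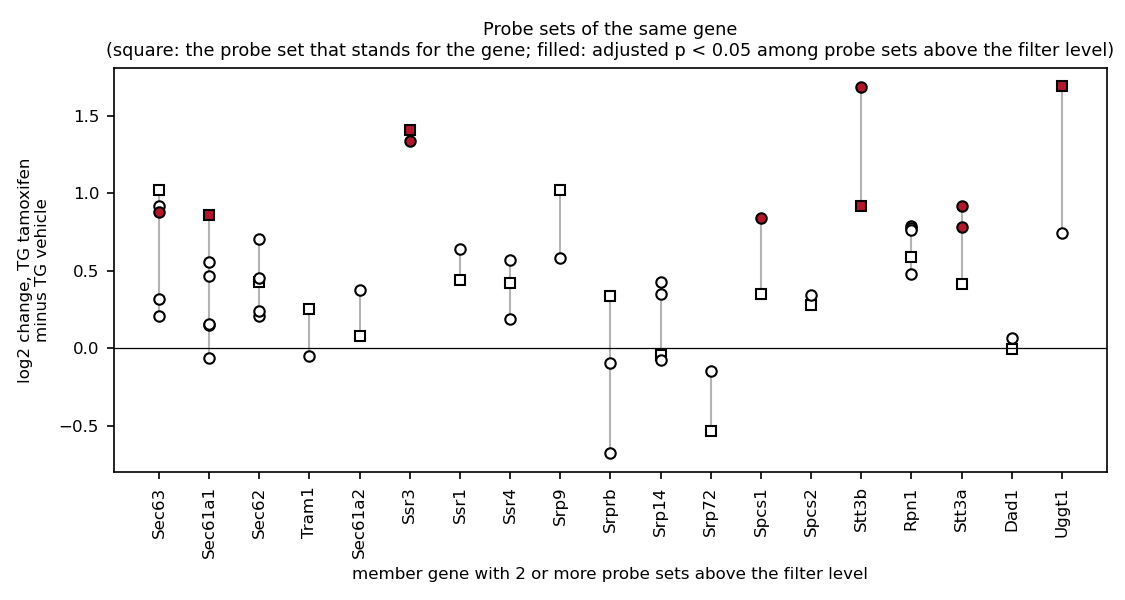
Change in TG tamoxifen against TG vehicle (vertical axis, log2) of every probe set above the filter level, for the 19 member genes with more than 1; squares stand for the gene and filled symbols passed in the test among such probe sets. Both probe sets of Ssr3 and of Stt3b are filled, and those of Sec61a1 spread from -0.06 to 0.86.

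Without the transgene, tamoxifen gave no call in the set. In NTG tamoxifen against NTG vehicle limma called 0 of 36 members (0.681% of all genes were higher and 3.69% lower). At an unadjusted p under 0.05 there were 10 members, 4 higher and 6 lower, without a count over all genes at that level. A limma fit with a trend of the spread, added after seeing the data, called 2 members and 732 of 11165 genes. The arrays did not overlap for 6 members above and 4 below (13.2% and 17% of all genes). Srp9 had the smallest adjusted p, -1.30 ± 0.34 (0.0541), with all NTG tamoxifen arrays below all NTG vehicle arrays. Ssr4 and Rpn2, at 0.76 ± 0.23 and 0.68 ± 0.23, were higher on every NTG tamoxifen array without passing (adjusted p = 0.0805 and 0.115). Without NTG tamoxifen 1, 1 member was called, Ssr3, which fell by 0.88 on the log2 scale (adjusted p = 0.0446; 0.725% of all genes were higher and 3.03% lower). Without NTG tamoxifen 2, in which the array that goes against its label weighs more, 3 members were called, and without TG vehicle 1 also 3; without TG vehicle 2 there was 1. Calls over all genes rose as well, from 488 to 831, 733 and 579 of 11165. Under median scaling 1 member was called, with 47 genes higher and 925 lower overall in place of 76 and 412.

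The transgene without drug was read in TG vehicle against NTG vehicle, where Spcs2 rose and Sec62 fell (1.39% and 2.24% of all genes), and the same genes passed without NTG tamoxifen 1 (3.1% and 4.18%). The arrays did not overlap for 7 members above and 2 below (15.4% and 15.4% of all genes). Spcs2 read 13.89, 13.74 and 14.02 in TG vehicle, 13.22, 13.09 and 13.11 in NTG vehicle, 14.20, 14.04 and 14.25 in TG tamoxifen, and 13.73, 13.43 and 13.65 in NTG tamoxifen. NTG vehicle was the lowest group with no overlap. The rise was 0.75 ± 0.15 (adjusted p = 0.0322), and a second probe set read 0.78. Sec62 read 13.12, 12.78 and 12.63 in TG vehicle, 13.74, 14.12 and 14.35 in NTG vehicle, 13.31, 13.35 and 13.17 in TG tamoxifen, and 13.05, 14.17 and 12.96 in NTG tamoxifen. NTG vehicle and NTG tamoxifen 2 stood above the rest. Sec62 fell by 1.22 on the log2 scale, with an SE of 0.30 (adjusted p = 0.0471), and its 4 other probe sets gave -0.25 to -1.04, none past the threshold. Neither call held under every single array left out: both were lost without TG tamoxifen 1 (adjusted p = 0.0521 and 0.0705 for Spcs2 and Sec62), TG tamoxifen 2 (0.0514 and 0.0703), TG vehicle 3 (0.110 and 0.160) or any NTG vehicle array (0.0751 to 0.113 and 0.0774 to 0.158), and Sec62 also without TG tamoxifen 3 (0.0669) or TG vehicle 2 (0.0805). The beta-actin ratio was 1.32 to 1.68 in TG vehicle and 2.12 to 2.43 in NTG vehicle.

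Both genotypes on the drug were compared in TG tamoxifen against NTG tamoxifen, a contrast that shares arrays with those above. There 14 members rose and 3 fell (19% and 20.6% of all genes), and 19 and 2 without NTG tamoxifen 1 (20.9% and 21.9%). The arrays did not overlap for 17 members above and 5 below (24% and 27%). Under median scaling 17 rose and 0 fell, with 2553 genes higher and 1707 lower overall in place of 2116 and 2295. The members with the smallest adjusted p were Spcs3 (1.62 ± 0.24, 0.000606), Srp9 (2.28 ± 0.34, 0.000622), Sec11c (0.99 ± 0.19, 0.00209), Stt3a (0.79 ± 0.16, 0.00308) and Spcs1 (0.88 ± 0.19, 0.00369). Spcs1 read 15.43, 15.39 and 15.42 in TG tamoxifen and 14.86, 14.51 and 14.24 in NTG tamoxifen, with TG vehicle at 15.08, 14.84 and 15.27 in between. All 5 signal peptidase genes rose here. With the mean of probe sets Sec11c was at 0.046 (adjusted p = 0.876), Sec11a at 0.54 (0.421) and Spcs1 at 0.80 (0.0660), none past the threshold, and Spcs2 missed it without TG tamoxifen 3 (0.0510). The members that fell were Srp68 (-0.81 ± 0.20, adjusted p = 0.00768), Srp72 (-0.73 ± 0.20, 0.0137) and Srpr (-0.63 ± 0.20, 0.0237; 0.0536 without NTG tamoxifen 1). Some members did not pass with NTG tamoxifen 1 and did without it: Uggt1 (0.99, adjusted p = 0.160, then 1.83, 0.000192), Stt3b (0.31, 0.299, then 0.62, 0.00670), Rpn1 (0.45, 0.205, then 0.81, 0.00502), Sec61b (0.30, 0.253, then 0.53, 0.0222) and Sec61a1 (0.50, 0.159, then 0.73, 0.0439). For these NTG tamoxifen 1 read within or above the TG tamoxifen range. It also read above that range for Ssr4 (15.05), Ddost (13.61) and Prkcsh (13.98), which passed in neither fit.

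Whether the drug effect differed between genotypes was tested directly, as the tamoxifen effect in TG minus that in NTG. It was above 0 for 6 members and below 0 for 0 (7.51% and 6.76% of all genes). At an unadjusted p under 0.05 it was above 0 for 9 and below 0 for 2, without a count over all genes at that level. Srp9 had the largest difference, 2.32 ± 0.48 (adjusted p = 0.0146), made of 1.02 in TG and -1.30 in NTG. Srp19, at 1.31 ± 0.33 (adjusted p = 0.0256), likewise joined 0.62 in TG and -0.69 in NTG. Srp19 read 14.75, 14.78 and 14.88 in TG tamoxifen, 14.70, 13.68 and 14.16 in TG vehicle, 13.90, 14.04 and 13.64 in NTG tamoxifen, and 14.41, 14.53 and 14.71 in NTG vehicle, so that each genotype's arrays separated by drug in opposite directions. Sec63 (1.94 ± 0.56), Ssr3 (1.73 ± 0.52), Spcs3 (1.14 ± 0.34) and Sec11c (1.06 ± 0.27) also passed, with adjusted p of 0.0400, 0.0476, 0.0453 and 0.0263. Without NTG tamoxifen 1 the numbers were 13 above and 1 below 0 (11.8% and 11% of all genes), the 1 below being Srp68 (-0.90, adjusted p = 0.0325). Without TG tamoxifen 1, NTG tamoxifen 3 or NTG vehicle 1 there were 2, without TG tamoxifen 2 or 3 or NTG vehicle 2 or 3 there was 1, and without TG vehicle 3 there were 3. Calls over all genes in these fits fell as well, to between 639 and 1067 of 11165 from 1593. Of the 6 members, Srp9 alone passed whichever single array was left out, and 0 of 6 passed without a filter on dim genes; median scaling gave 10 above 0, with 1518 genes higher and 335 lower overall in place of 838 and 755.

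**Figure D5:**
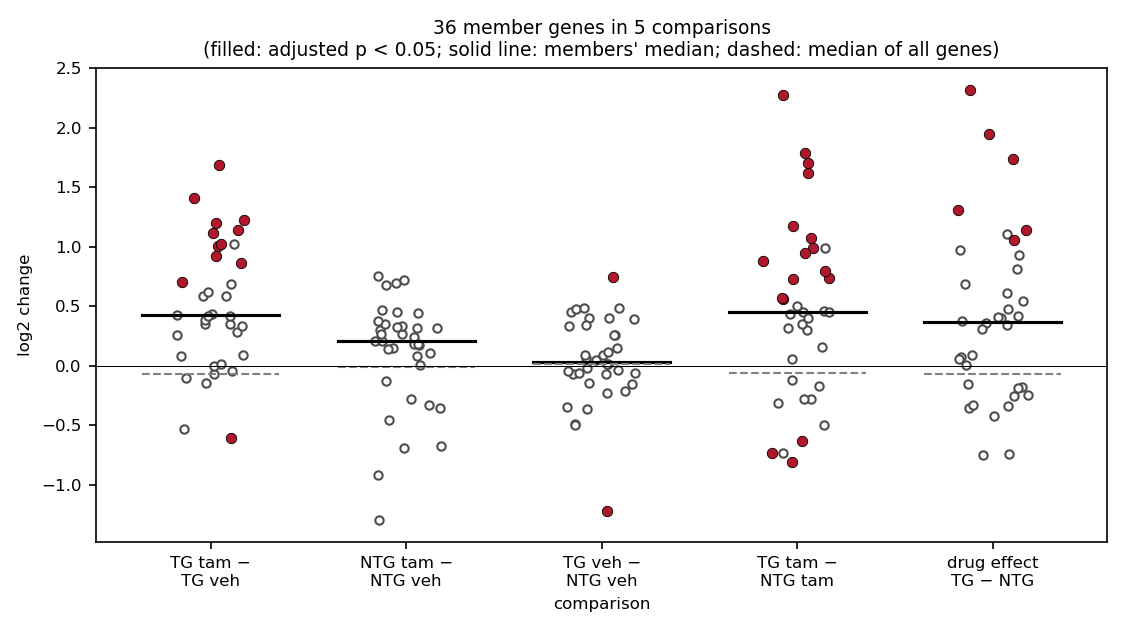
Log2 change of each of the 36 genes (points) in the 4 group comparisons and the difference of drug effects, with filled points past an adjusted p of 0.05. The members' median (solid line) lies above the median of all genes (dashed line) in TG tamoxifen against TG vehicle, at 0.43 and -0.07, and both nearly coincide in TG vehicle against NTG vehicle, at 0.03 and 0.01.

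Related genes outside the set were read from 8 lists of 82 genes, of which 77 were tested. In TG tamoxifen against TG vehicle 17 rose and 7 fell, and 19 and 7 without NTG tamoxifen 1. Without TG tamoxifen 1 or TG vehicle 2, 11 rose. Over all genes 10.4% rose and 14.4% fell, and 12.9% and 16.4% without NTG tamoxifen 1, so lists with 1 of 15 or 1 of 17 higher were not above that share. Of the genes listed as translocon partners, 5 of 8 rose: Dnajc3 (3.42 ± 0.53, adjusted p = 0.00234), Dnajb11 (3.36), Hspa5 (2.41), Dnajb9 (1.78) and Hyou1 (1.35). Of lectins and mannosidases that read trimmed sugar chains, 4 of 8 rose: the lectin chaperones Calr (2.24) and Canx (0.81), and Edem1 (1.51) and Edem3 (1.38), which send glycoproteins to degradation. Ostc, a subunit that joins Stt3a to the channel, was the 1 of 6 further oligosaccharyltransferase genes to rise (1.45 ± 0.35, adjusted p = 0.0131). Sugar donor enzymes moved both ways, with Gfpt1 (1.01), Uap1 (1.02) and Gmppb (1.22) higher and Mpi (-1.04) and Gmppa (-0.53) lower among 10. Further enzymes of the dolichol-linked tree gave 1 higher, Alg14 (0.93), and 1 lower, Dolk (-0.65), among 17.

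The routes that insert membrane proteins without Sec61 gave 1 higher, Emc2 (0.96), and 4 lower among 15: Emc9 (-1.07), Bag6 (-0.89), Sgta (-0.70) and Emc10 (-0.68). Of 8 Golgi enzymes that mature the chains Man2a1 (0.72) and Mgat2 (0.55) rose. Of 5 genes of the complex that attaches GPI anchors limma called 0, with Pigk (0.50, adjusted p = 0.0586) and Pigs (-0.51, 0.119) at an unadjusted p under 0.05. For every related gene that rose or fell, the TG tamoxifen and TG vehicle arrays did not overlap (over all genes 19.8% lay above and 24.4% below). These genes were called from the same arrays, so the lack of overlap adds no support to the calls.

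Some markers of cell types were also called in TG tamoxifen against TG vehicle, where 10.4% of all genes rose and 14.4% fell. Endothelial markers fell for 4 of 6, with summed intensities between 28769 and 31712 in TG tamoxifen, between 37754 and 48735 in TG vehicle, between 31526 and 38633 in NTG tamoxifen, and between 45451 and 48855 in NTG vehicle. Macrophage markers rose for 2 of 8, Ptprc (1.40) and Aif1 (1.34). Of the 8 changes 5 were above 0 and the others below, the lowest at -0.58. The macrophage sums, in the same order of groups, were 55451 to 68838, 42249 to 82217, 45280 to 54699 and 40730 to 47711. Cardiomyocyte markers fell for 2 of 7, Mybpc3 (-1.03) and Ryr2 (-0.90), with sums of 1618090 to 1697790, 1853020 to 1930450, 1793770 to 1961110 and 1966610 to 2014890. Fibroblast markers gave 1 higher and 1 lower of 7, with sums of 200221 to 230617, 230401 to 265033, 145522 to 191026 and 186035 to 217269. Plasma and B cells are rich in this machinery: of 7 markers 6 were on the array and 4 of those were too dim to test, and the tested Mzb1 and Sdc1 changed by -0.21 and -0.17. Their sums, mostly of dim genes, were 3274 to 4245 in TG tamoxifen and 4796 to 6241 in TG vehicle. In NTG tamoxifen they were 3199 to 4596 and in NTG vehicle 3502 to 5232, both overlapping TG tamoxifen. No marker was listed at 0, and the part of these markers in the members' changes was not tested.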

How the data were processed

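Left ventricle RNA of 12 mice was read on 12 arrays. The authors deposited intensities, not logged, that ran from 1.02 to 537040; the software that summarised them is not given in the sources used here. In the deposited values each array had a 2% trimmed mean of 2500.02. Intensities were taken as log2(intensity + 16) and, since array medians spanned 0.35 (over 0.2), quantile normalized. Changes on this offset scale understate those of dim genes. The number of arrays limits precision.

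Symbols came from the platform annotation: 34945 probe sets had 1 symbol, 932 several, 9160 none, and 64 were controls. Genes took the probe set with the highest mean. Of 18193 genes, 11165 lay above the 50th percentile (an intensity of 670) and were tested in 1 limma 3.58.1 fit (R 4.3.3; lmFit, eBayes, two-sided) of 4 group means, with 8 residual and 3.55 prior degrees of freedom and Benjamini-Hochberg adjustment. The script was tested on simulated data. Groups followed the titles; every heart is a separate animal. Members and lists were chosen with earlier results of these data known. Every member could be named; values per array are given for called genes, paralogs and those leading other comparisons; each related list gives up to 3 genes by adjusted p, and Dnajb11, Hyou1, Canx, Gmppa, Emc2, Emc10, Mzb1, Sdc1 and others beyond this were named after their values were seen. Same-numbered arrays correlated at -0.05 to 0.09 in their deviations from group means, so numbers did not pair arrays. Alternatives were the scaling, offset, filter, probe set rule, arrays in the fit, replicate block, labels in doubt, each array left out, and the promoter stretch. One promoter sequence is not reported here. A further motif, ERSE-II, had also been searched, without a match in a member window, and was left out of the final search.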

Additional observations from a re-analysis of the deposited data

Results flagged for a closer look

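The tamoxifen effect differed between genotypes, by a test of the difference itself, for 6 of 36 members, all with a difference above 0 (over all genes 7.51% were above and 6.76% below). The difference (TG minus NTG, log2) and its limma adjusted p were 2.32 and 0.0146 for Srp9, 1.94 and 0.0400 for Sec63, 1.73 and 0.0476 for Ssr3, 1.31 and 0.0256 for Srp19, 1.14 and 0.0453 for Spcs3, and 1.06 and 0.0263 for Sec11c. Without the array labelled NTG tamoxifen 1, which reads Esr1 at the TG level, they were 2.49, 2.40, 2.29, 1.33, 1.45 and 1.24 in the same order, with adjusted p from 0.000861 to 0.0236. Over all alternatives the adjusted p reached 0.176 for Srp9, 0.202 for Sec63, 0.317 for Ssr3, 0.193 for Srp19, 0.302 for Spcs3 and 0.851 for Sec11c. With the mean of probe sets the difference of Sec11c was 0.093. Srp9 alone passed whichever single array was left out; the call was lost in 6 of 12 such fits for Sec11c and Srp19, 8 for Sec63, 10 for Ssr3 and 11 for Spcs3. The causes were not tested.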

How the results depend on the processing

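Offsets of 1 and 64 kept all 12 calls in TG tamoxifen against TG vehicle. There members higher, 11, became 17 under median centring, 5 with no filter, 7 with the mean of probe sets, 2 when TG tamoxifen 1 and TG vehicle 3 were dropped together, 0 when TG vehicle 3 was moved to the tamoxifen group, and 4 to 13 with single arrays left out. Over all genes 1166 higher became 1542, 653 of 18193, 899 of 9649, 250, 0, and 534 to 1438 in the same order. Members lower, 1, became 0 under median centring, no filter, a 25th percentile filter, only the groups compared, the replicate block, the regrouping and the joint removal, and 0 to 1 with single arrays left out. Over all genes 1608 lower became 1166, 951 of 18193, 1219 of 14914, 1331, 1432, 0, 493, and 931 to 1832 in the same order. In NTG, 0 called became 1 under median centring and 2 with a trend of the spread (chosen, like the probe set filter named later, after seeing the data), and 0 to 3 with single arrays left out. Over all genes 488 called became 972, 732, and 0 to 831 in the same order. In TG vehicle against NTG vehicle, 2 called became 1 under median centring or the mean of probe sets and 0 under the 25th percentile filter, no filter, only the groups compared, the replicate block, the regrouping and the joint removal, and 0 to 2 with single arrays left out. Over all genes 405 called became 553, 168 of 9649, 73 of 14914, 8 of 18193, 17, 91, 0, 5, and 2 to 813 in the same order. For the difference of drug effects, 6 became 10 under median centring, 1 with the 25th percentile filter, 0 with no filter, the regrouping or the joint removal, and 1 to 14 with single arrays left out. Over all genes 1593 became 1853, 884 of 14914, 361 of 18193, 0, 65, and 639 to 2546 in the same order. Related genes higher, 17, became 11 with no filter, 0 with the regrouping, 3 with the joint removal, and 11 to 19 with single arrays left out. Over all genes 1166 higher became 653 of 18193, 0, 250, and 534 to 1438 in the same order. Member probe sets called, 3, became 1 with only the groups compared, 0 with the replicate block, the regrouping or the joint removal, 19 with a trend, 16 above the 50th percentile, and 0 to 10 with single arrays left out. Apart from the fit above the 50th percentile, no count over all probe sets is given for these alternatives. In TG tamoxifen against NTG tamoxifen 14 to 21 members were called in 23 alternatives, not always the same: of 17 calls, 11 were kept and 5 lost with the mean of probe sets, 3 (all falls) were lost under median centring, and 13 passed whichever single array was left out. Over all genes 4411 called became 3092 to 4785. The filters change how many genes are tested and the removals how many arrays are used; the cause was otherwise not tested.

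Sec11c minus Sec11a, 0.08, reversed to -0.54 with the mean of probe sets and -0.092 without TG vehicle 1, and ran from -0.09 to 0.26 with single arrays left out. With single arrays left out Sec61a1 minus Sec61a2 ran from 0.28 to 1.05 and Stt3a minus Stt3b from -0.62 to -0.30. With the replicate block, members higher were 9, and 17 and 4 were called in TG tamoxifen against NTG tamoxifen and in the difference of drug effects; numbers give no pairing by the labels. Median centring moved the median of all genes from -0.01 to -0.16 (NTG), 0.01 to -0.11 (TG vehicle against NTG vehicle), -0.06 to 0.06 (both on drug) and -0.07 to 0.18 (difference of effects). Counts of promoters with motifs stayed at 0 for ERSE and TGACGTGG with only the bases before the start, and were 13 for CCACG and 11 for CCAAT.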
